A study of Mus musculus with 16 samples.

Results

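The genes described here encode the nuclear subunits of oxidative phosphorylation in the gastrocnemius, a muscle of the calf in which fast fibres prevail. They were taken by symbol (Ndufa, Ndufb, Ndufc, Ndufs or Ndufv with a number, Sdha to Sdhd, Uqcr genes, Cyc1, Cycs, Cox4 to Cox8 genes and Atp5 genes), with the symbols read from the accession given for each array probe. The rule itself uses symbols and no measured value. It gave 85 genes on 116 of 55588 probes, of 87 such symbols in the RefSeq gene table, and 83 of the 85 were among the 21777 genes tested. Cox7b2 and Cox8c were not well above background on any of the 16 arrays and were not tested.

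The mice were female, untreated and of the inbred strain C57Bl/6J, with no further allele in the labels, and were sampled at 3, 15, 24 and 29 months of age, with 4 samples at each age and 1 single-colour array for each sample. Whether the samples of one age are separate animals is not said in the labels, so each p-value rests on a spread between samples that may be technical. Between 48.0% and 60.9% of non-control spots were well above background, none was saturated, and precision is limited by having 4 arrays at each age. Slide 1 held the arrays of 3 and 15 months and slide 2 held those of 24 and 29 months, so the comparisons of 15 with 3 and of 29 with 24 months lay within a slide and the others spanned both. Levels are log2 signals relative to the 75th percentile of their array, and a difference of levels is a log2 change.

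Oxidative phosphorylation passes electrons from NADH through complex I, or from succinate through complex II, to ubiquinone, complex III, cytochrome c and complex IV, where oxygen is reduced to water. Complexes I, III and IV pump protons across the inner mitochondrial membrane, and complex V, the ATP synthase, uses the gradient to make ATP. Muscle relies on this chain during sustained work, and cytochrome c oxidase (complex IV) has subunits with separate isoforms in heart and skeletal muscle. The 83 tested genes comprised 35 of complex I (7 core and 28 accessory), 4 of complex II, 9 of complex III, Cycs for cytochrome c, 17 of complex IV and 17 of complex V.

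Most subunit transcripts moved together from array to array, whatever their complex. For each array, the median over the 83 genes of their deviation from their own mean over all 16 arrays was taken. At 3 months these medians were 0.06, 0.09, -0.05 and 0.26 on replicates 1 to 4, and at 15 months they were 0.05, 0.04, -0.07 and 0.12. At 24 months they were 0.06, -0.13, 0.05 and -0.18, and at 29 months -0.46, 0.25, -0.08 and -0.01. The lowest and the second highest of the 16 medians thus both belonged to the oldest age, and each old age overlapped the youngest. Over all genes tested, the same medians ran from -0.096 to 0.046 over the 16 arrays. On replicate 1 of 29 months, 80 of 83 subunits lay below their own mean, and on replicate 4 of 24 months 81 did. On replicate 2 of 29 months and on replicate 4 of 3 months only 2 of 83 did.

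**Figure D1:**
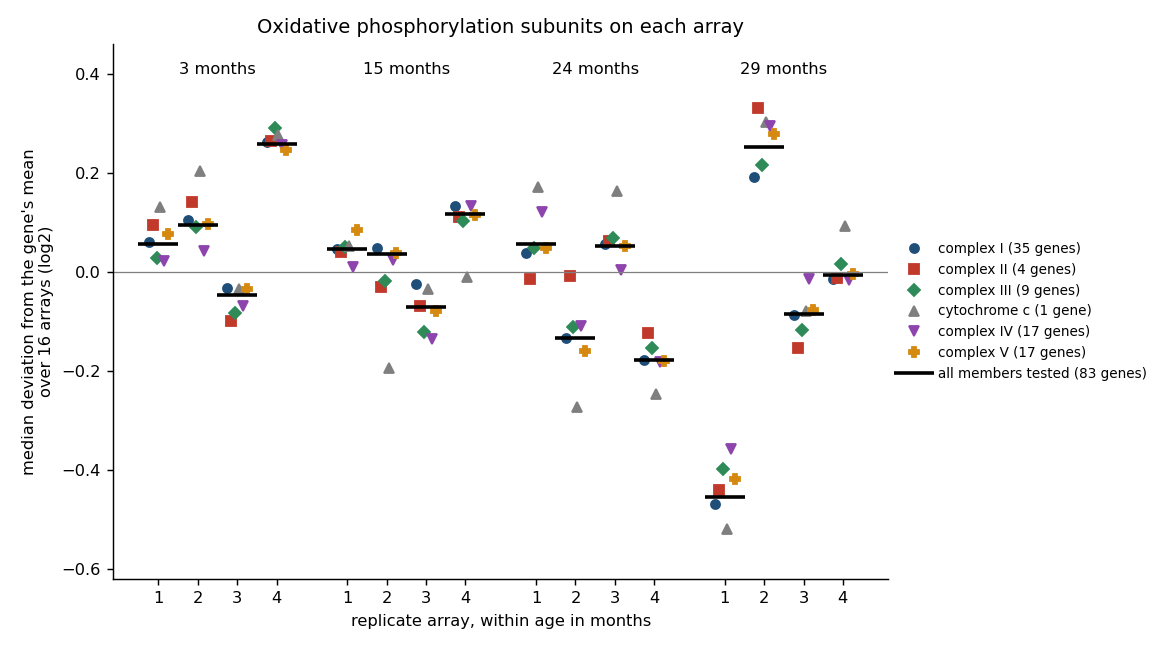
Median deviation (log2) of the subunits of each complex on each of the 16 arrays, from each gene's own mean over all arrays; black bars mark the median over all 83 genes tested, and the x axis gives the replicate within each age. On an array the medians of the 5 complexes span 0.0316 to 0.151, and at 29 months the medians over all 83 genes run from -0.46 on replicate 1 to 0.25 on replicate 2.

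All complexes were low on the array with the lowest median and high on replicate 2 of the same age. On replicate 1 of 29 months the medians were -0.47 for complex I, -0.44 for complex II, -0.40 for complex III, -0.36 for complex IV and -0.42 for complex V, and Cycs was at -0.52. On replicate 2 of that age they lay between 0.19 for complex I and 0.33 for complex II. The spread of the subunits within an age was correspondingly widest at 29 months, with a median SD of 0.297 (n = 4 arrays), against 0.254 over all genes tested. At 3, 15 and 24 months the subunits had median SDs of 0.150, 0.104 and 0.151, below those of all genes (0.165, 0.162 and 0.229).

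Genes of other mitochondrial functions and markers of other cells stood apart on some of the same arrays. On replicate 1 of 29 months the 14 genes of the tricarboxylic acid cycle had a median of -0.36 and 18 assembly factors of complex I one of -0.44. On that array the 12 fast fibre genes were at -0.37, where the other 3 arrays of 29 months ranged from -0.02 to 0.12, the 5 measured of 11 T and NK cell markers were at 0.83, and the 4 measured of 7 B and plasma cell markers at 3.01. B and plasma cell markers also stood at 2.33 on replicate 4 of 24 months, where the 8 measured of 9 adipocyte markers were at 3.29; on the other 14 arrays the B and plasma cell markers ranged from -0.86 to 0.49. The 9 slow fibre genes ranged from -1.55 to 0.23 at 3 months and from -0.43 to 0.86 at 29 months. Fibroblast markers (8 of 8 measured) ranged from 0.48 to 0.85 at 3 months, from -1.95 to 0.11 at 24 months and from -1.75 to 0.44 at 29 months, and endothelial markers (7 of 7) from 0.17 to 0.40, from -1.20 to 0.10 and from -0.54 to 0.12. On replicate 2 of 24 months, where the subunits were at -0.13, fibroblast markers stood at -1.95, endothelial at -1.20, macrophage at -1.53 and erythroid at -1.95. At 29 against 3 months 4 of 8 fibroblast and 3 of 7 endothelial markers fell (limma), beside 7.66% of all genes called lower. Also, 1 of 12 fast fibre genes fell, and 1 of 4 B and plasma cell and 1 of 2 measured brown adipocyte markers rose. Of 6 nerve and Schwann cell markers 1 rose and 1 fell, beside 14.6% of all genes called in either direction. Of 9 slow fibre genes 0 were called and 9 lay above 0, with a median of 1.02. Of these, 6 had an unadjusted p under 0.05, beside 28.7% of all genes. Fast fibre markers were detected on every array, and in whole muscle fewer cells of a type and less RNA per cell cannot be told apart. The part of other cells and of fibre type in the levels of the subunits was not tested.

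Promoters were examined because the subunits moved together. RefSeq (GRCm38.p6) gave the 250 bases before the start of 69 of the 85 genes. The palindromic site of NRF1, a regulator of nuclear respiratory genes, with its middle base left free (the relaxed form), stood on either strand in 13 of the 69 (18.8%) and in 4.23% of all 27025 genes with such a window. The strict palindrome, contained in the relaxed form, was in 4 of 69 (5.80%) and in 0.877% of all. CCGGAAG, bound by ETS factors such as GABP, was in 12 (17.4%, all genes 7.83%), AAGGTCA, bound by ERR receptors, in 5 (7.25%, all 4.70%), and the cyclic AMP element TGACGTCA in 5 (7.25%, all 1.77%). Of the other letters searched, ATGGCGG (the core of a YY1 site) was in 4 (5.80%, all 2.58%), the longer YY1 site that contains it in 0 (all 0.248%), the E-box CANNTG in 42 (60.9%, all 69.3%) and a MEF2 site with free middle bases in 1 (1.45%, all 3.70%). Median GC content was 56.2% for promoters of the subunits and 52.4% for all promoters. At 29 against 3 months the median change was -0.18 for the 13 subunits with the relaxed NRF1 form and -0.16 for the 55 tested subunits without it.

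The windows are shown for a pair of complex IV isoforms whose ratio did not overlap between 3 and 29 months (Cox8a and Cox8b), for Cox6a1, whose mean was higher at 29 months, and for Ndufb4 of complex I, whose mean was lower at 24 and 29 months. Capitals mark the relaxed NRF1 form, CCGGAAG and AAGGTCA on either strand, and all 4 genes lie on the minus strand of GRCm38.p6, at chr19:7217617-7217866 for Cox8a, chr7:140900447-140900696 for Cox8b, chr5:115348959-115349208 for Cox6a1 and chr16:37654369-37654618 for Ndufb4.
Cox8a: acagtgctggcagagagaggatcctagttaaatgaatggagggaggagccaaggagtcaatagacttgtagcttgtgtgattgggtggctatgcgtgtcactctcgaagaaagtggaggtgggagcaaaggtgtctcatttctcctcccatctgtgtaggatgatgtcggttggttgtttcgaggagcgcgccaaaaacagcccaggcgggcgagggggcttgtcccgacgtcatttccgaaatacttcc
Cox8b: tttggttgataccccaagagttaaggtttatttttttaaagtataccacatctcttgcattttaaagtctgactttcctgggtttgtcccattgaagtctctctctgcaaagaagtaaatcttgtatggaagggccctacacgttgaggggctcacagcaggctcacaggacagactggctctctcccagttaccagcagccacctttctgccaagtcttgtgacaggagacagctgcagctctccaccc
Cox6a1: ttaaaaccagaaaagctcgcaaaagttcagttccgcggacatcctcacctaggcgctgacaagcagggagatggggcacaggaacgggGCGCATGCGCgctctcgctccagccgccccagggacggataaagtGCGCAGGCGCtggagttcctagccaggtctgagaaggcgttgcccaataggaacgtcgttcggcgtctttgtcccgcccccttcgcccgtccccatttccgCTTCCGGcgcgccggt
Ndufb4: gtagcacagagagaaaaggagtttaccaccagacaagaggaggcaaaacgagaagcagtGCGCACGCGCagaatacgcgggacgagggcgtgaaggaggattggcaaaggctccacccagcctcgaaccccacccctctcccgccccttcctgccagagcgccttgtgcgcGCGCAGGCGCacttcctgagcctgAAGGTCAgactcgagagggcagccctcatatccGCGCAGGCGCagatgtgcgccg
Cox6a1 held 2 relaxed NRF1 matches and 1 of the ETS letters, and Ndufb4 held 3 and 1 of the ERR letters. The windows of Cox8a and Cox8b had 0 of these 3 motifs. Matches are letters in a sequence, not measured binding.

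No subunit was called in any comparison of ages. Between 29 and 3 months, 0 of 83 subunits passed an adjusted p of 0.05 in limma (smallest adjusted p = 0.0523, Cox8a), where 14.6% of all genes tested did. At an unadjusted p under 0.05 there were 9 subunits (10.8%), 8 lower and 1 higher, where 28.7% of all genes lay under it. The log2 changes of the subunits were small and mostly below 0: 76 of 83 were negative, against 54.6% of all genes, and their median was -0.16, or 10.71% lower, against a median of -0.036 over all genes. The 95% interval lay within 1.5-fold either way for 67 of 83 subunits and within 2-fold for all 83, and the median SE was 0.140. The 4 arrays of 29 months all lay above those of 3 months for 2 subunits (Cox8a and Cox6b2), where 8.74% of all genes did so, and all below for 1 (Cox4i2), where 11% did.

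The median change rested on few arrays. Without replicate 1 of 29 months it was -0.046, with 56 of 83 subunits below 0, and without the 4 arrays that limma weighted lowest (replicates 1 and 3 of 29 months, 2 and 4 of 24 months) it was 0.038, with 32 of 83 below 0. Without replicate 2 of 29 months it was -0.27, and 8 subunits were called, all lower, where 7.16% of all genes were called lower (12.9% in either direction).

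The number called also differed under other processing of the signals. With quantile normalization, 13 of 83 subunits were called at 29 against 3 months, all lower, beside 9.04% of all genes called lower (16.3% in either direction). With normexp background correction and quantile normalization there were 20, all lower (9.81% of all genes called lower, 17.2% in either direction), and with the deposited log2 values 6 of 79, all lower (9.18% lower, 16% in either direction). Normexp changes the background correction as well as the scaling, and the scaling of the deposited values is unknown. The same 6 genes were called under all 3 of these settings, of 23 called under any: Cox7c of complex IV, and Ndufa12, Ndufc1, Ndufc2, Ndufs1 and Ndufs7 of complex I. Complex I, with 35 of the 83 subunits tested, supplied 9 of the 13 and 14 of the 20. The subunits moved together from array to array, so these calls are not independent of each other. The medians of the 83 subunits were -0.23 with quantile normalization and -0.24 with normexp. With each array scaled by its median, 0 were called, beside 7.06% of all genes in either direction.

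**Figure D2:**
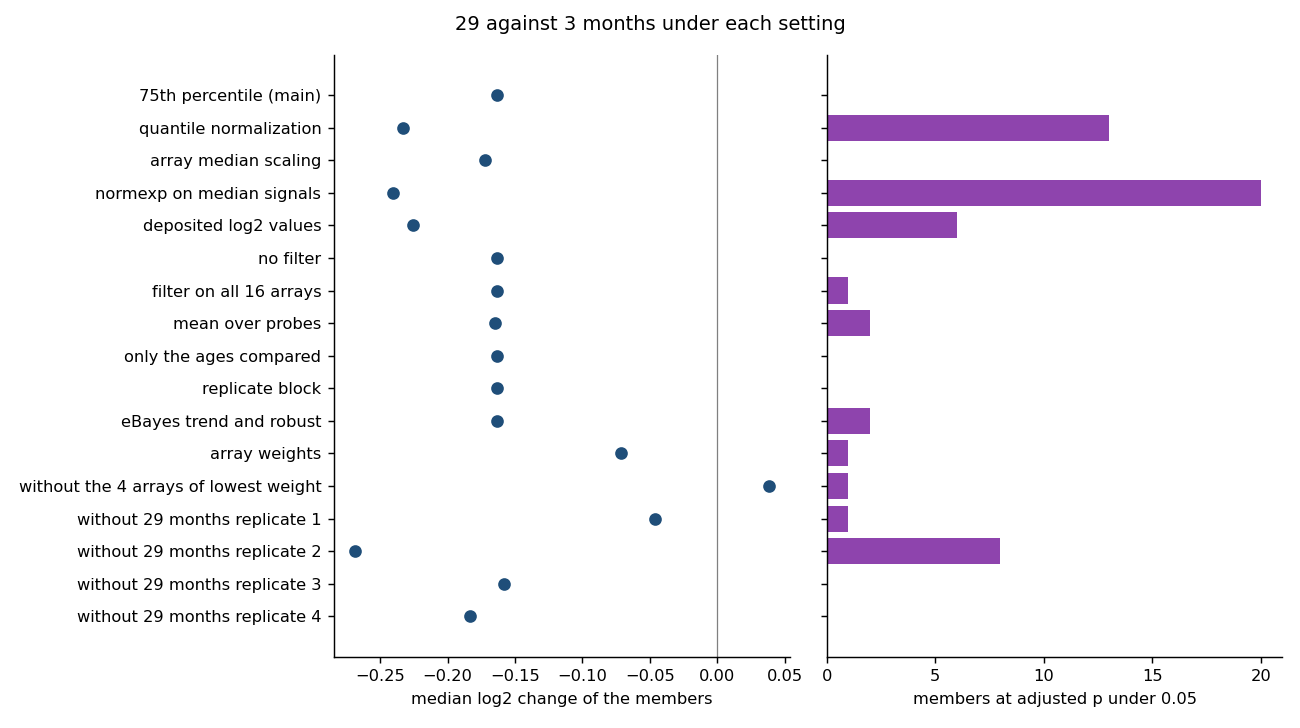
Left, median log2 change of the subunits at 29 against 3 months under each setting of the analysis; right, number of subunits at adjusted p under 0.05 (limma). The median is -0.16 with scaling by the 75th percentile and 0.038 without the 4 arrays of lowest weight, and the number called runs from 0 to 20.

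The other comparisons gave smaller or similar differences. Between 24 and 3 months 0 subunits were called (4.66% of all genes) and 5 had an unadjusted p under 0.05 (21.2% of all genes). Below 0 lay 76 of 83 (52.9% of all genes), with a median of -0.15 against -0.020 over all genes. Between 15 and 3 months, within slide 1, 0 were called (0.978%). An unadjusted p under 0.05 was reached by 1, Ndufc2, beside 10.72% of all genes. Below 0 lay 64 of 83 (52.55% of all genes), with a median of -0.059 against -0.011 over all genes. Without replicate 4 of 3 months the median of the subunits was 0.011, with 39 of 83 below 0. Without replicate 3 of 15 months it was -0.016, with 46 below 0. Between 24 and 15 months 0 were called (0.0964%), 3 had an unadjusted p under 0.05 (13.4% of all genes), and the median was -0.087. Between 29 and 24 months, within slide 2, 0 were called (1.91%) and 0 had an unadjusted p under 0.05 (15.3% of all genes). The median was -0.018 against -0.028 over all genes. That direction turned with the setting: it was 0.11 with 75 of 83 above 0 after scaling by array medians, 0.10 with 75 above 0 without replicate 1 of 29 months, and -0.11 with 77 below 0 after quantile normalization. In the test of any difference among the 4 ages 0 were called (11.9%). An unadjusted p under 0.05 was reached by 3 (28.4% of all genes), namely Cox6b2, Cox8a and Ndufa12. Comparisons against 3 months share its arrays and are not independent. Scaled by array medians, the median over all genes was -0.15 at 24 against 3 and 24 against 15 months and 0.096 at 29 against 24 months, and that over the subunits -0.28, -0.22 (80 of 83 below 0) and 0.11.

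By complex, the medians at 24 against 3 months were -0.18 for complex I, -0.15 for complex II, -0.099 for complex III, -0.19 for Cycs, -0.100 for complex IV and -0.16 for complex V. Within slide 1, at 15 against 3 months, they lay between -0.10 for complex III and -0.039 for complex I among the 5 complexes. Within slide 2, at 29 against 24 months, they were -0.034, -0.038 and -0.016 for complexes I, II and III and closer to 0 for complexes IV and V. Complexes I and V had 30 of 35 and 16 of 17 subunits below 0 at 24 against 15 months, a comparison that spans both slides, and complex IV had 8 of 17.

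Complex I, which oxidises NADH, had 34 of 35 subunits below 0 at 29 against 3 months, with a median of -0.19. The 7 core subunits, which carry the flavin and iron-sulfur clusters, had a median of -0.23 and the 28 accessory ones a median of -0.18. Within slide 1 the 28 accessory subunits had a median of -0.034 at 15 against 3 months. The one subunit above 0 at 29 months was Ndufb3 (0.046), named after its value was seen.

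Ndufc2, an accessory subunit of the membrane arm, had the second smallest p of all subunits at 29 against 3 months. Its levels were 6.76, 6.70, 6.60 and 6.76 at 3 months, and 6.41, 6.28, 6.52 and 6.46 at 15 months. They were 6.60, 6.36, 6.63 and 6.31 at 24 months and 6.00, 6.65, 6.34 and 6.35 at 29 months. All 4 arrays of 15 months thus lay below those of 3 months, as they did for 4 subunits in all (6.35% of all genes), while 1 array of 29 months overlapped 3 months. The log2 change was -0.29 ± 0.12 (SE) at 15 months (limma adjusted p = 0.405) and -0.37 ± 0.12 at 29 months (adjusted p = 0.0593). The latter was called with quantile normalization (-0.47, adjusted p = 0.0081) and not without replicate 1 of 29 months (-0.26, adjusted p = 0.143).

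Ndufa12, an accessory subunit, and Ndufb4, of the membrane arm, had lower means at both old ages. Ndufa12 stood at 7.78, 7.87, 7.82 and 8.01 at 3 months, 7.87, 7.92, 7.78 and 7.92 at 15 months, 7.75, 7.55, 7.78 and 7.52 at 24 months, and 7.24, 7.79, 7.66 and 7.63 at 29 months. The 4 arrays of 24 months lay below all of those of 3 and of 15 months, though by under the second decimal at the closest, and those of 29 months overlapped 3 months on replicate 2. Its change at 29 against 3 months was -0.29 ± 0.11 (adjusted p = 0.112). Ndufb4 had means of 8.10 ± 0.09 (SD, n = 4) at 3, 8.10 ± 0.08 at 15, 7.84 ± 0.09 at 24 and 7.85 ± 0.27 at 29 months. All arrays of 24 months were below both younger ages, and the change at 24 against 3 months was -0.26 ± 0.12 (limma adjusted p = 0.217). Such separation of 24 from 3 months held for 5 subunits, all lower, beside 9.08% of all genes, and that of 24 from 15 months for 3, beside 5.79%.

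The core subunits overlapped between 3 and 29 months. Ndufs8, an iron-sulfur subunit next to the ubiquinone site, had the lowest change of complex I, -0.41 ± 0.21 at 29 against 3 months (adjusted p = 0.227). It stood at 4.91, 4.99, 4.33 and 4.69 at 3 months and at 3.73, 4.60, 4.41 and 4.54 at 29 months, and also had 1 low array, 3.88, at 24 months. Ndufs1, which carries several iron-sulfur clusters, and Ndufs7, which holds the last cluster before ubiquinone, changed by -0.32 and -0.28 (limma adjusted p = 0.0827 and 0.138). Ndufa11, an accessory subunit of the membrane arm, changed by -0.37 ± 0.19 (adjusted p = 0.215) with 1 low array at 29 months, 4.31, beside 4.94 to 5.14.

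**Figure D3:**
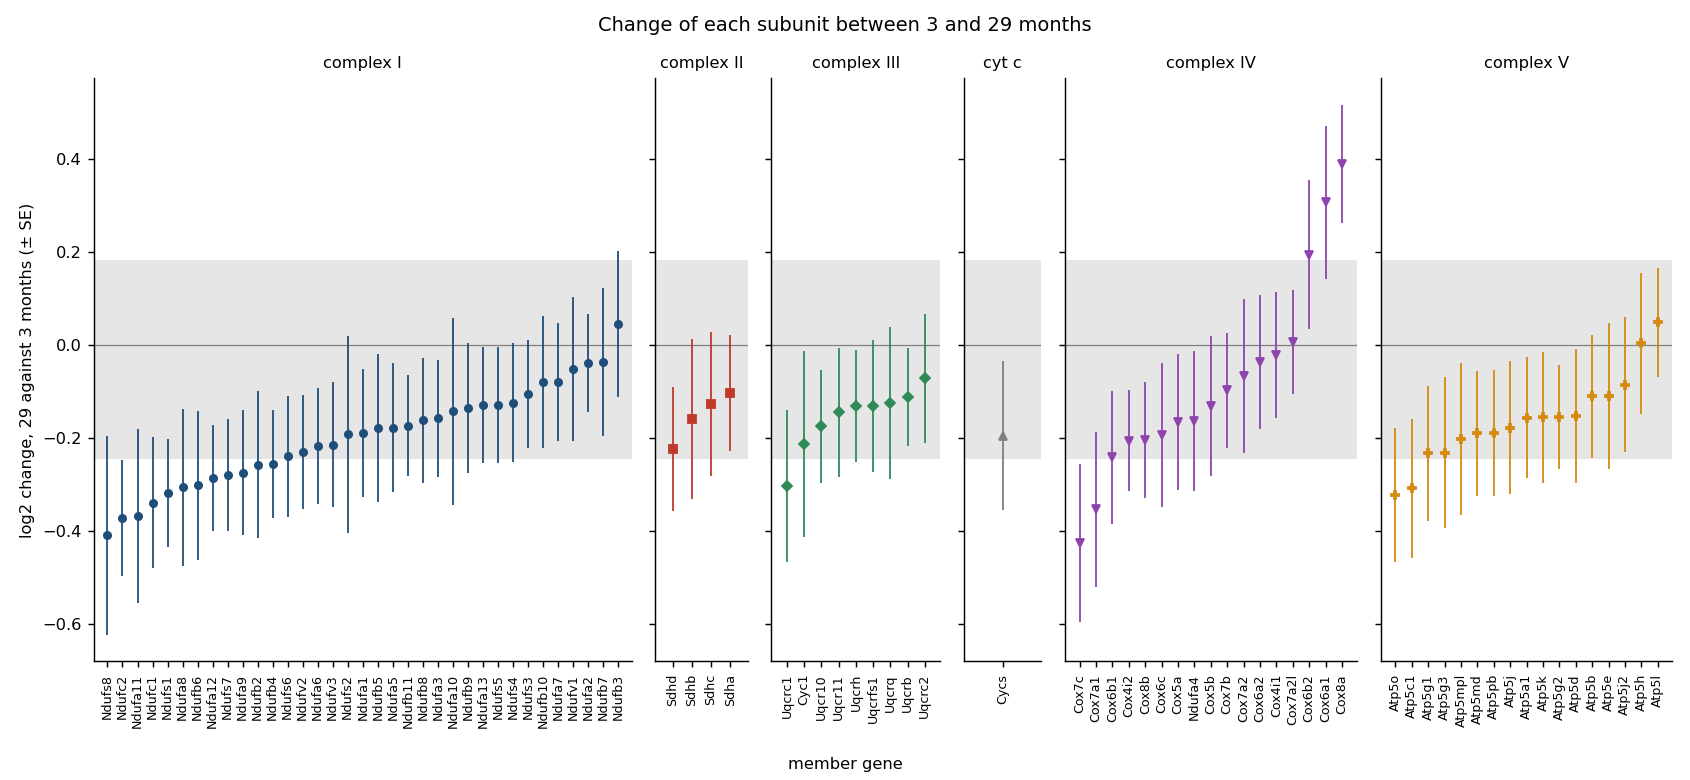
Log2 change of each of the 83 subunits at 29 against 3 months (points) with its SE (bars), grouped by complex and ordered by size; the grey band spans the middle 50% of all genes tested. Most subunits lie between -0.41 and 0, and Cox8a (0.39), Cox6a1 (0.31) and Cox6b2 (0.19) of complex IV are the highest.

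The subunits of succinate dehydrogenase (complex II) had small differences between ages. Sdha, the flavoprotein that oxidises succinate, stood at 6.14 ± 0.21 (SD, n = 4) at 3 months and 6.04 ± 0.23 at 29 months. Sdhb, the iron-sulfur subunit, stood at 8.53, 8.64, 8.46 and 8.83 at 3 months and at 7.93, 8.97, 8.35 and 8.57 at 29 months, so that its lowest and highest values both came from the oldest age. Its SD at 29 months, 0.43, was the widest of all subunits there. The membrane anchors Sdhc and Sdhd changed by -0.13 ± 0.15 and -0.22 ± 0.13. None of the 4 was called, and their changes ran from -0.22 to -0.10 (limma adjusted p 0.291 to 0.640).

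Complex III, which passes electrons from ubiquinol to cytochrome c, had 9 of 9 subunits below 0 at 29 against 3 months, with a median of -0.13 and none called. Uqcrc1, a core protein of the matrix side, stood at 6.20, 6.41, 6.04 and 6.46 at 3 months, 6.10, 5.52, 6.16 and 5.83 at 24 months, and 5.55, 6.28, 5.93 and 6.13 at 29 months. Its changes were -0.37 ± 0.16 at 24 months (limma adjusted p = 0.205) and -0.30 ± 0.16 at 29 months (adjusted p = 0.242), and the ages overlapped. Cyc1, the cytochrome c1 that hands electrons on, changed by -0.21 ± 0.20, Uqcr10, a small subunit, by -0.17 ± 0.12, and Uqcrh, the hinge protein, by -0.13 ± 0.12. The other 5 subunits of the complex ran from -0.14 to -0.071. Cycs, the mobile carrier between complexes III and IV, stood at 7.73, 7.80, 7.56 and 7.87 at 3 months and 7.08, 7.90, 7.52 and 7.69 at 29 months. Its mean differed from that of 3 months by -0.19 ± 0.16 at 15, 24 and 29 months alike (adjusted p = 0.463 at 29 months).

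The ATP synthase (complex V) had 15 of 17 subunits below 0 at 29 against 3 months, with a median of -0.16 and none called. Atp5o, a subunit of the stalk that joins the catalytic head to the membrane part, stood at 7.22 ± 0.18 (SD, n = 4) at 3 months and at 6.61, 7.28, 7.01 and 6.70 at 29 months, with 2 arrays of 29 months inside the range of 3 months. It changed by -0.32 ± 0.14 (limma adjusted p = 0.154). Atp5c1, the rotating gamma subunit, changed by -0.30 ± 0.15 at 24 months and -0.31 ± 0.15 at 29 months (limma adjusted p = 0.261 and 0.188). The 3 genes Atp5g1, Atp5g2 and Atp5g3, whose products are the same mature subunit c of the rotor ring, changed by -0.23, -0.15 and -0.23. Atp5l, subunit g of the membrane part, was 1 of the 2 subunits above 0 (0.049 ± 0.12), and its probes disagreed in sign. The 5 subunits of the catalytic F1 head ran from -0.31 to -0.11.

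Complex IV differed most among its own members, with 13 of 17 below 0 at 29 against 3 months, a median of -0.13 and both the highest and the lowest changes of all subunits. Cox7c, a small structural subunit, stood at 7.29, 7.19, 7.22 and 7.50 at 3 months and 6.75, 7.42, 6.91 and 6.41 at 29 months. It was the lowest, -0.43 ± 0.17 (limma adjusted p = 0.112), with 1 array of 29 months inside the range of 3 months. Its other 2 probes differed by -0.089 and -0.36, and with the mean over probes Cox7c changed by -0.29 and was not called, so its place as the lowest rests on the choice of probe. Cox8a, the widely expressed isoform of the smallest subunit, was the highest. It stood at 5.65, 5.74, 5.61 and 5.94 at 3 months, 5.56, 5.79, 5.79 and 6.01 at 15 months, 6.15, 5.79, 5.84 and 6.07 at 24 months, and 5.97, 6.38, 6.01 and 6.14 at 29 months. All 4 arrays of 29 months lay above all of 3 months, replicate 1 of 29 months included. The change was 0.39 ± 0.13, with an adjusted p of 0.0523 (limma).

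Cox8a lay near the threshold under most settings. It was called in 11 of 30 settings, and its change lay between 0.30 and 0.55 in all 30. Its adjusted p was 0.0868 with quantile normalization, 0.149 with the deposited values, 0.0430 without replicate 1 of 29 months and 0.138 without replicate 2 of that age. With the median of the 83 subunits subtracted from each array, a setting added after seeing the data, it was the 1 subunit called at 29 against 3 months (0.55, adjusted p = 0.00833; 12.8% of all genes called). Within slide 2 its change from 24 to 29 months was 0.16 ± 0.13, and within slide 1 from 3 to 15 months 0.05 ± 0.13.

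**Figure D4:**
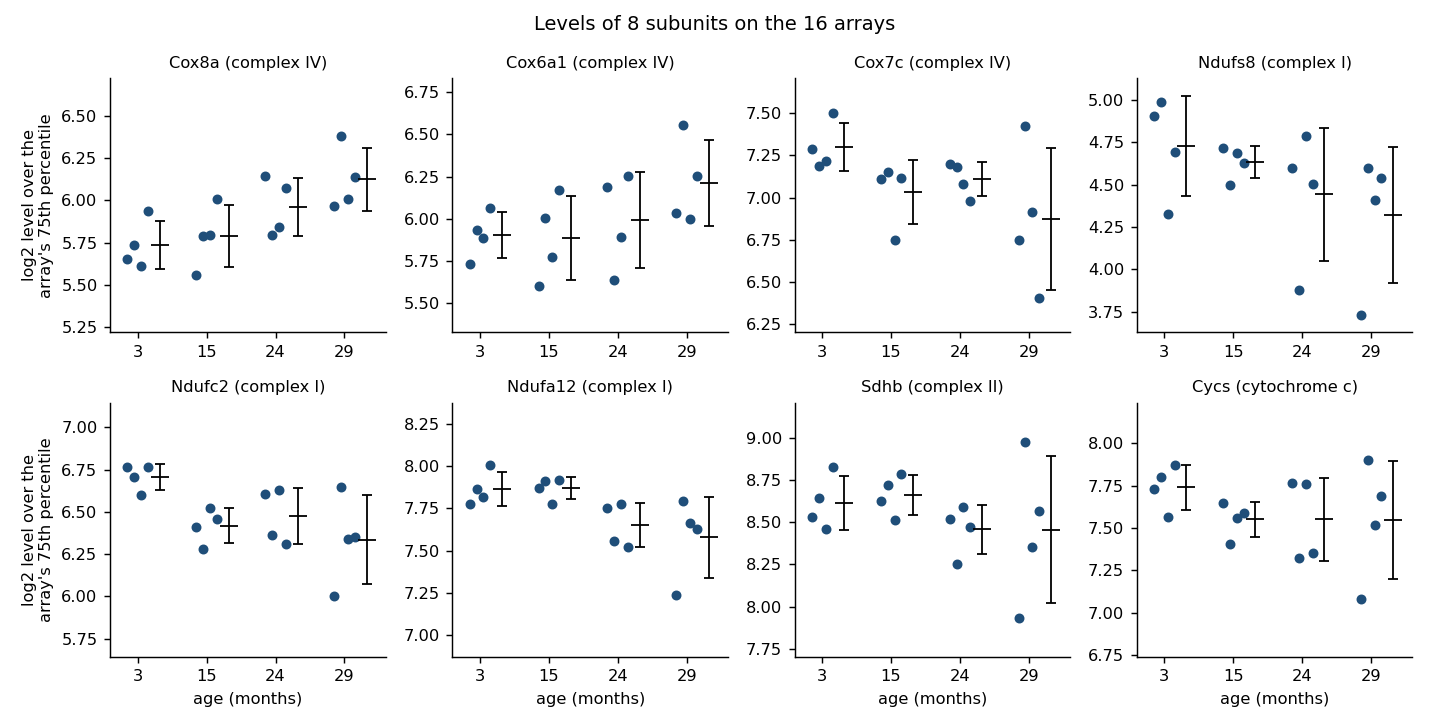
Level of 8 subunits on each of the 16 arrays (log2 over the array's 75th percentile) by age in months; points are arrays, and the bar beside them is the mean ± SD (n = 4). Every panel spans 1.5 log2 units around its own centre; Cox8a at 29 months (5.97 to 6.38) lies above 3 months (5.61 to 5.94), and the other panels overlap between these ages.

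Cytochrome c oxidase pairs of isoforms were compared as a log2 ratio within each array, from which any constant subtracted from that array cancels. A shift that depends on the strength of the signal does not cancel, and the probes of a pair differed in mean signal. It was 9.03 for Cox8b and 5.90 for Cox8a, and 8.68 for Cox7a1 and 6.41 for Cox7a2. Such a shift was not tested. For each pair the muscle or tissue-restricted isoform was set over the widely expressed one, 5 pairs could be measured, and 4 against 4 arrays cannot give an exact permutation p below 0.0286. Only differences of a ratio between ages are read, since the levels of separate probes are not comparable. The ratio of Cox8b, the heart and skeletal muscle isoform of subunit 8, to Cox8a was 3.35, 3.35, 3.41 and 3.45 at 3 months, 3.58, 3.43, 3.23 and 3.15 at 15 months, 2.81, 3.12, 3.21 and 2.74 at 24 months, and 2.57, 2.65, 3.07 and 2.88 at 29 months. All arrays of 24 and of 29 months were below all of 3 months. The difference of 29 from 3 months was -0.59, or 1.51-fold lower (two-sided exact permutation p = 0.0286, Benjamini-Hochberg adjusted over 5 pairs 0.0714). Within slides it was -0.04 at 15 against 3 and -0.18 at 29 against 24 months, and the larger part, -0.38 from 15 to 24 months, fell between slides and cannot be told apart from them. Cox8b itself stood at 9.12 ± 0.18 at 3 and 8.92 ± 0.25 (SD, n = 4) at 29 months.

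The ratio of Cox7a1, the muscle isoform of subunit 7a, to Cox7a2 was lower at the oldest age than at each other age. It was 2.31, 2.35, 2.28 and 2.44 at 3 months and 2.44, 2.26, 2.37 and 2.34 at 24 months, and 2.22, 1.98, 1.99 and 2.04 at 29 months. The arrays of 29 months lay below all 12 others. The difference was -0.29 against 3 months (exact permutation p = 0.0286, adjusted 0.0714) and -0.30 against 24 months, on the same slide, where it was not tested. By itself Cox7a1 changed by -0.35 ± 0.17 and Cox7a2 by -0.07 ± 0.17 at 29 against 3 months.

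The other pairs overlapped between 3 and 29 months or varied widely. Cox6a2, the muscle isoform of subunit 6a, over Cox6a1 differed by -0.34 at 29 against 3 months (exact permutation p = 0.0857, adjusted 0.107), with 4.11 to 4.20 at 3 months and 3.51 to 4.17 at 29 months. Cox6a1 alone stood at 5.73, 5.93, 5.89 and 6.06 at 3 months and 6.04, 6.56, 6.00 and 6.26 at 29 months, a change of 0.31 ± 0.16 (limma adjusted p = 0.236). Cox6b2, known from testis, over Cox6b1 differed by 0.44 (exact permutation p = 0.0571, adjusted 0.0952). Cox6b2 was well above background on all 16 arrays and stood at -0.86, -0.95, -0.92 and -0.92 at 3 months, -0.32, -0.17, -0.56 and -1.04 at 24 months, and -0.77, -0.66, -0.63 and -0.82 at 29 months. Its smallest p came from 24 against 15 months (0.55 ± 0.16, limma adjusted p = 0.176), and without replicate 4 of 24 months, the lowest of its age, it was called there (0.72, adjusted p = 0.0439) and at 24 against 3 months (0.56, adjusted p = 0.0301).

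Cox4i2, an isoform induced by low oxygen in other tissues, over Cox4i1 differed by -0.19 (exact permutation p = 0.314). Cox4i2 stood at 0.97, 0.92, 0.99 and 0.94 at 3 months and 0.65, 0.73, 0.91 and 0.72 at 29 months, which do not overlap, and changed by -0.21 ± 0.11 (limma adjusted p = 0.231). Cox4i1, the widely expressed form, stood at 8.63 ± 0.18 and 8.61 ± 0.26. Cox7a2l, which takes part in the joining of complexes III and IV into supercomplexes, changed by 0.01 ± 0.11, and its probes disagreed in sign. Cox7b changed by -0.10 ± 0.12.

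**Figure D5:**
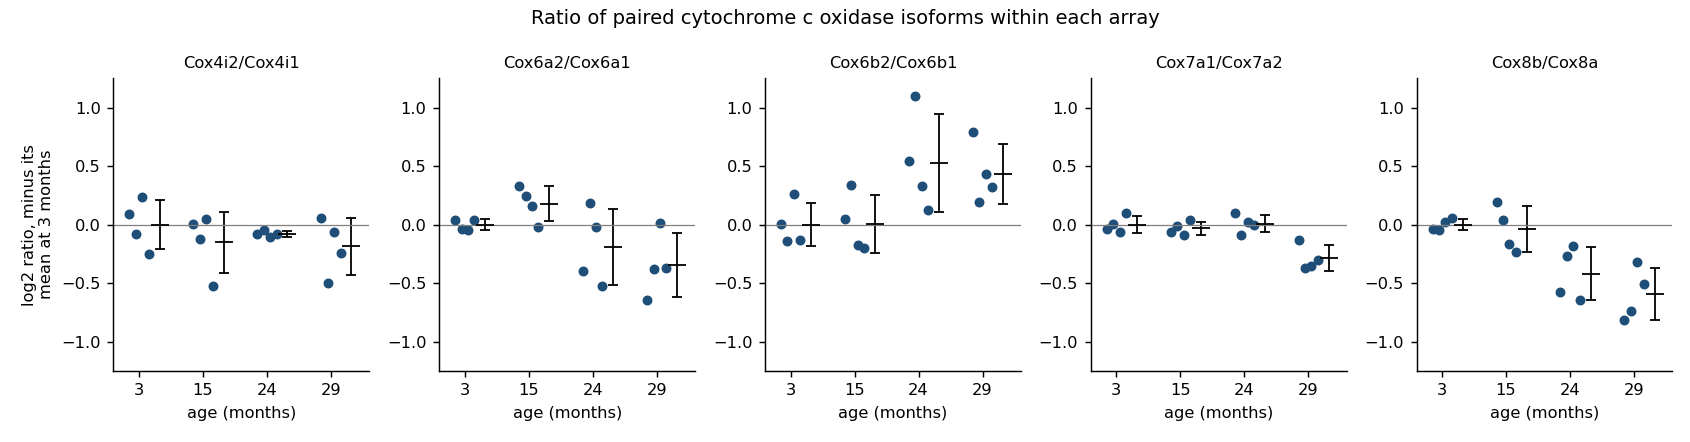
Log2 ratio of 5 pairs of complex IV isoforms within each array, minus the mean ratio at 3 months, by age in months; points are arrays and bars beside them the mean ± SD (n = 4). Cox8b/Cox8a is 0.59 lower at 29 than at 3 months, and Cox7a1/Cox7a2 is 0.29 lower, with no overlap between these ages in either pair.

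Probes of a gene mostly agreed. Of 23 subunits with several kept probes, all probes of 18 had the same sign of the difference between 29 and 3 months, the median range between probes was 0.079, and the widest was 0.51 (Ndufb11, named after its value was seen). Whether the step from 24 to 29 months differed from that between 3 and 15 months was tested for each subunit (limma). Of 83 subunits, 0 were called and 0 had an unadjusted p under 0.05. The share of all genes for this test is not given here, so these counts are not read as a result about the subunits.

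Genes that build the complexes gave few calls at 29 against 3 months, beside 7.66% of all genes called lower and 14.6% called in either direction. None of 18 assembly factors of complex I was called at 29 against 3 months (limma), with a median of -0.16. Of these 18, 4 had an unadjusted p under 0.05, beside 28.7% of all genes. Of 22 measured assembly factors of complex IV, 2 fell: Cox15, which makes heme a, by -0.49 ± 0.13 (limma adjusted p = 0.0169), and Coa6, a copper chaperone, by -0.36 ± 0.11 (adjusted p = 0.0393). Of 10 measured for complexes II and III, 1 fell, Sdhaf3, by -0.60 ± 0.17 (adjusted p = 0.0318), and of 6 for complex V none was called, with a median of -0.24. Cox15 was called in 26 of 30 settings, Coa6 in 17 and Sdhaf3 in 18, and without replicate 1 of 29 months the adjusted p values were 0.0427, 0.0945 and 0.0770. With the mean over its probes, Cox15 changed by -0.26 (adjusted p = 0.133).

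Ndufa4l2, a relative of the complex IV subunit Ndufa4 known from low oxygen, lay outside the choice of symbols. It stood at 1.60, 1.82, 1.86 and 1.97 at 3 months, 0.96, -0.24, 1.18 and 1.05 at 24 months, and 0.05, 1.12, 0.69 and 1.09 at 29 months. At 15 against 3 months, within slide 1, Ndufa4l2 changed by -0.74 and was not called (limma). Against 3 months it fell by 1.07 ± 0.28 at both old ages (limma adjusted p = 0.0439 and 0.0195), comparisons that span both slides. Neither old age overlapped 3 months. Without replicate 1 of 29 months the later change was -0.85 (adjusted p = 0.0524). Of the 14 tricarboxylic acid cycle genes 0 were called at 29 against 3 months (limma), with a median of -0.17. Of these 14, 1 had an unadjusted p under 0.05, beside 28.7% of all genes. Of 18 regulators of mitochondrial genes, 2 were called at 29 against 3 months, which spans both slides, beside 14.6% of all genes. The coactivator Ppargc1a rose by 0.98 ± 0.23 (limma adjusted p = 0.0109, called in 30 of 30 settings). Its relative Ppargc1b fell by 1.14 ± 0.26 (adjusted p = 0.00968). Within slide 1, at 15 against 3 months, changes of the 18 regulators already ran from -0.90 to 0.68, with 0 called. Within slide 2, at 29 against 24 months, they ran from -0.27 to 0.39, with 0 called.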

How the data were processed

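Each array gave spot intensity, read by Feature Extraction 10.7.1.1 per the file headers, with background subtracted and no scaling between arrays. A deposited table of log2 values was joined by feature number (r 0.985 to 0.993 with the scanner values across probes, -0.005 to 0.0183 by probe name) and served as an alternative, its scaling not given in the sources used here. Spots marked as outliers were left out, spots of a probe averaged, and the 75th percentile of each array's log2 signals subtracted. A probe was kept if some age had it well above background on each of its 4 arrays (28435 probes), and each gene was read from its kept probe of highest mean. The model, one mean for each age, used limma 3.58.1 (R 4.3.3) and 21777 genes (16 arrays, 12 residual and 2.73 prior degrees of freedom), two-sided, Benjamini-Hochberg adjusted over all genes, called at adjusted p under 0.05, after a check on simulated data. Slide could not be a term, since each age lies on 1 slide. Symbols come from RefSeq (GRCm38.p6) through the probes' accessions; array coordinates of another build were not used.

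Named genes were the 3 subunits of complexes I, III, IV and V with the smallest p for any difference among ages, all of complex II, Cycs, Cyc1, Cox7a2l, subunit c genes, isoform pairs, and the 4 highest and 4 lowest changes of 29 against 3 months. Ndufs1, Ndufs7, Ndufc1, Ndufb3 and Ndufb11 were named after their values were seen, as were the single genes of the related lists. The genes, the lists and the 4 arrays left out together were chosen with earlier results of these data known. Alternatives were other scalings, background correction, filters, probe rules and spreads, and leaving out arrays. Mitochondrially encoded subunits, Cox6c2 and Ndufb1 were not analysed here.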

Additional observations from a re-analysis of the deposited data

Results flagged for a closer look

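Within an age, 10 of 180 sets of 4 values had 1 array set apart from the other 3 by more than 0.829 of their range, a limit that chance passes in about 1 of 20 sets. Replicate 3 of 15 months was the low array in 4 of them: Atp5c1 (7.02, the others 7.24 to 7.28), Atp5l (8.49, the others 8.66 to 8.68), Cox7c (6.75, the others 7.11 to 7.15) and Uqcr10 (7.70, the others 7.94 to 7.97). Replicate 3 of 3 months was low for Atp5c1 (6.96, the others 7.23 to 7.28) and Sdha (5.83, the others 6.23 to 6.27). Replicate 4 of 3 months was high for Ndufb4 (8.24, the others 8.05 to 8.07). Replicate 4 of 15 months was low for Cox4i2 (0.47, the others 0.82 to 0.88), replicate 4 of 24 months for Atp5g2 (8.04, the others 8.35 to 8.40) and replicate 1 of 29 months for Cox8b (8.54, the others 9.02 to 9.08).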

How the results depend on the processing

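Of 1217 values computed for the main results under other settings, 1182 kept their direction and side of the threshold where tested, stayed within 1.5 times where counted, or moved by less than 1 SD between arrays where medians. Within that SD the medians still shifted widely: leaving out each array gave -0.27 to -0.046 for all subunits and -0.24 to -0.0046 for complex IV at 29 against 3 months, -0.11 to 0.011 for all subunits at 15 against 3 and -0.14 to 0.10 at 29 against 24 months. Part of the 1217 values could not move. A median change stays the same under another spread, or without an array of an age that is not compared. The count of 1182 is therefore no measure of how firm the results are. The number of subunits called at 29 against 3 months was 0 and became 13 with quantile normalization, 20 with normexp, 6 with the deposited values, 2 with the mean over probes, 2 with eBayes trend and robust, and 1 each with the filter on all 16 arrays, array weights, scaling to the subunits (added after seeing the data) and without the 4 arrays of lowest weight. Of all genes, 14.69% were called with the mean over probes, 15.37% with trend and robust, and 15.84% with the filter on all 16 arrays. With array weights 16.95% of all genes were called, with scaling to the subunits 12.77%, and without the 4 arrays of lowest weight 17.23%. For any difference among the 4 ages the number of subunits called was 0. It became 4, 7 and 1 with quantile normalization, normexp and the deposited values, and 1 with scaling to the subunits. In the same order, 12.97%, 16.88%, 17.36% and 8.07% of all genes were called. Leaving out each array gave 0 to 8 subunits called at 29 against 3 months, where 10.03% to 16.27% of all genes were called. It gave 0 to 1 at 24 against 3, at 24 against 15 months and for any difference. Of all genes, 2.08% to 5.89% were called at 24 against 3 months in these fits. At 24 against 15 months 0.00918% to 0.404% of all genes were called, and for any difference 8.37% to 12.07%. The 8 came without replicate 2 of 29 months; the single calls at 29 against 3 months were Ndufs1 without replicate 3 of 3 months and Cox8a without replicate 4 of 3, 1 or 4 of 15, 2 of 24 or 1 of 29 months, and the other single calls were Cox6b2 without replicate 4 of 24 months. With those 4 arrays left out, median changes at 29 against 3 months came to 0.038 over all subunits, 0.084 for complex II, 0.043 for complex III, 0.054 for Cycs, 0.10 for complex IV and 0.048 for complex V. The adjusted p of 3 isoform ratios passed 0.05 with quantile normalization (Cox6b2/Cox6b1 0.44, Cox7a1/Cox7a2 -0.28, Cox8b/Cox8a -0.53). Leaving out each array gave -0.69 to -0.52 for Cox8b/Cox8a, -0.34 to -0.25 for Cox7a1/Cox7a2 and -0.46 to -0.24 for Cox6a2/Cox6a1; without replicate 3 of 29 months these 3 passed. The causes were not tested. The slide as a random block could not be fitted, because slide is already given by age.

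Replicate numbers did not pair the samples: deviations of same-numbered arrays correlated between -0.47 and 0.30, over 0.1 in 6 of 24 pairs, and 2 of 16 arrays matched best with their own number. With the replicate block, 0 subunits were called at 29 against 3 months, 2731 of all genes instead of 3190, and the median change of the subunits was -0.16.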
